A study of Mus musculus with 6 samples.

Results

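Soleus muscle of mice that underwent hindlimb suspension together with electroacupuncture was compared with soleus of control mice. The comparison took 4 of the 6 arrays of the series by their titles, 2 labelled HS + electroacupuncture soleus and 2 labelled control soleus, and covered 19938 genes. The 2 arrays of suspension alone entered the estimate of the variance and the choice of the probe cluster that stood for each gene, and nothing else. All groups were male C57BL/6 mice of 8 weeks, and the labels name no transgene or deletion. In hindlimb suspension the hind limbs are lifted so that they bear no weight, and in electroacupuncture a current is passed through inserted needles. The treated group differed from control in both, so the effects of unloading and of the current cannot be told apart here. The length of suspension, the needle points, the current and the hour at which tissue was taken are not given in the sources used here.

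The soleus is a postural muscle of the calf, active whenever the animal stands, and is rich in slow oxidative fibres that burn fatty acids and ketone bodies. When it is unloaded it loses mass, protein breakdown through ubiquitin ligases increases, and over time its contractile and metabolic genes move toward those of fast glycolytic fibres. Load and stretch are also sensed at the Z-disc, where the thin filaments of neighbouring sarcomeres are anchored, and at the tendon.

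The 12 markers of muscle identity, among them skeletal actin Acta1 with log2 signals of 13.29 and 13.53 on the control arrays and 13.29 and 13.41 on the treated arrays, were all measured, and 5 differences were above 0 and 7 below. None of the 12 fell below a log2 signal of 3.47, under which 95% of the 1027 olfactory receptor genes lay and which is used as a background level throughout. Whether duplicates were hybridized from different animals is not given, so the p-values (n = 2 arrays a group) measure the spread between arrays, which may be technical. Array medians ran from 4.56 to 4.61 on the log2 scale. The control arrays differed from each other more than the treated arrays did: the SD over genes of the difference between duplicates was 0.357 in control and 0.251 in the treated group. Fat markers were among the genes that differed between the control arrays, and their share of that spread was not tested. The 15 adipocyte markers had a mean of -0.50 in control array 1 and 0.50 in control array 2 relative to the control mean, and Adipoq, the adiponectin gene of fat cells, had signals of 5.10 and 8.09 there.

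The 10 genes that changed at least 4-fold and passed were Bdh1, Nr4a3, Lrrc52, Ppp1r27, Myh2, Otud1 and Fabp3, which fell, and Actn3, Myh4 and Inmt, which rose. Bdh1, which interconverts the ketone bodies in mitochondria, fell 6.26-fold. Nr4a3, an orphan nuclear receptor gene induced by activity, fell 5.55-fold. Lrrc52, of a potassium channel subunit, fell 5.22-fold and the phosphatase regulator gene Ppp1r27 fell 4.69-fold. Myh2, the myosin of fast oxidative IIA fibres, fell 4.59-fold. The fast-fibre actinin gene Actn3 rose 4.28-fold, the gene of the fastest myosin heavy chain, Myh4, rose 4.22-fold, and Inmt, a methyltransferase gene, rose 4.12-fold. Of 19938 genes, 206 or 1.03% passed an adjusted p under 0.05 in limma (Benjamini-Hochberg over all genes), 89 higher (0.446%) and 117 lower (0.587%) in the treated group. Of these, 117 changed at least 2-fold, 46 higher and 71 lower, and 10 changed at least 4-fold, 3 higher and 7 lower. The median difference over all genes was 0.01 log2, and 9762 differences were below 0. On all 206 the arrays of the groups did not overlap, which was also true of 41.8% of all genes.

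**Figure D1:**
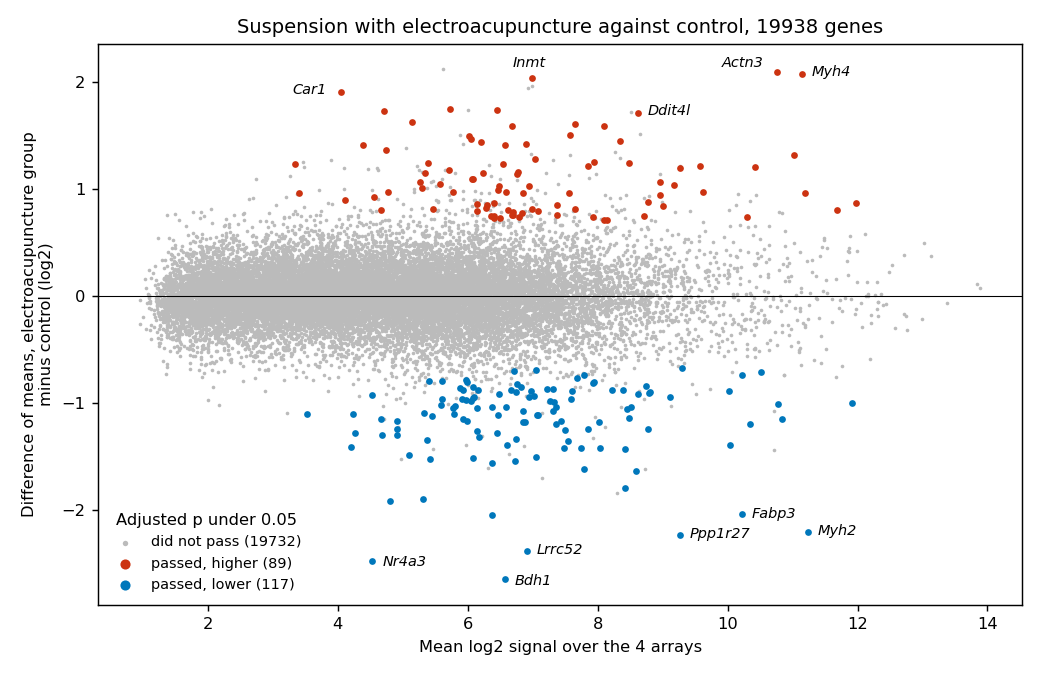
Difference between the group means (log2, treated minus control) against the mean log2 signal over the 4 arrays, with a point for each of 19938 genes and colour for those past an adjusted p of 0.05. The 117 lower genes reach further from 0 than the 89 higher genes, with 7 against 3 at least 4-fold, and Bdh1 lies lowest at -2.65.

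The count of calls rested on having both treated arrays. Without treated array 1 it was 9, and 8 of those were among the 206: Bdh1, Ddit4l, Eda2r, Inmt, Mc5r, Myh2, Nr4a3 and Pfkfb3. The other was Ankrd1, a stretch-induced ankyrin repeat gene, with signals of 5.41 and 5.68 in control and of 5.67 and 3.41 in the treated arrays. Without treated array 2 the count was 2, Bdh1 and Ppp1r3c. Bdh1 was thus the one gene called without either treated array. Of the 206 calls, 121 were kept without control array 1 and 141 without control array 2, and the balance turned with the second, from 89 higher and 117 lower to 189 and 110. Leaving out a suspension array, which does not enter the difference itself, also lowered the count. All 206 differences kept their sign in every setting run. Since their groups did not overlap, leaving out 1 array could not have reversed a sign.

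**Figure D2:**
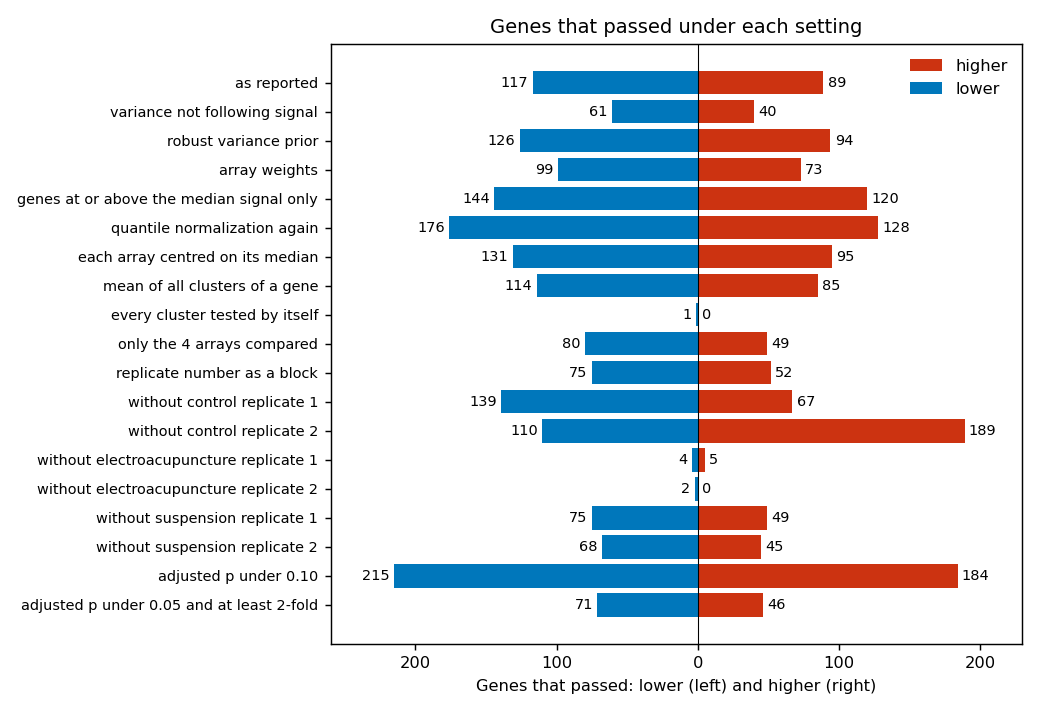
Number of genes past the threshold, lower to the left and higher to the right, as reported and under each alternative setting. The bars nearly vanish without either treated array (9 and 2 genes) and when clusters are not collapsed to genes (1 call).

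Some contractile genes rose and others fell, and most did not pass. Of 17 fast-fibre genes 6 rose and 1 fell, or 41.2% of the list against 1.03% of all genes, with a median difference of 0.50 log2 against 0.01 over all genes. Actn3, which crosslinks actin at the Z-disc of fast fibres, had log2 signals of 10.13 and 9.30 on the control arrays and 11.82 and 11.80 on the treated arrays. The treated arrays lay close together and well above both controls, a difference of 2.10 ± 0.23 (SE, adjusted p = 0.00871 in limma). Myh4 had signals of 10.76 and 9.46 in control and 12.13 and 12.25 in the treated group, a difference of 2.08 ± 0.33 (adjusted p = 0.0286). The call of Myh4 was lost with the robust prior (adjusted p = 0.0652), with the 4 arrays fitted alone (0.0604) and with a prior that does not follow the signal (0.051). For both genes the distance between the control arrays was far larger than that between the treated arrays.

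The myosin heavy chains of IIX and IIA fibres went opposite ways. Myh1, the IIX chain, rose from 11.61 and 11.47 to 12.51 and 12.31 (0.87 ± 0.15, adjusted p = 0.0384, and 0.0508 without control array 2). Myh2 fell from 12.21 and 12.47 to 10.68 and 9.60 (-2.20 ± 0.29, adjusted p = 0.0142), with treated array 2 well below array 1 and both below the controls. Myh7, the slow heavy chain, had 11.62 and 12.02 in control and 11.62 and 11.98 in the treated group. Its difference of -0.02 ± 0.18 (adjusted p = 0.98) was within its error, and it was 0.18 without control array 2 and 0.16 without treated array 1. The heavy chain genes share much of their sequence, and cross-hybridization between their probes was not tested.

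The other fast-fibre genes that rose were the myosin light chain kinase gene Mylk2, the calcium-binding parvalbumin gene Pvalb and Myoz1, a calcineurin-binding protein of the fast Z-disc. Mylk2 went from 8.78 and 8.54 to 9.98 and 9.74 (1.20 ± 0.15, adjusted p = 0.0111). Pvalb, which speeds relaxation, went from 10.63 and 10.09 to 11.55 and 11.82 (1.32 ± 0.19, adjusted p = 0.0212). Myoz1 went from 10.81 and 10.59 to 11.59 and 11.74 (0.97 ± 0.14, adjusted p = 0.0194). In each of these genes both treated arrays lay above both control arrays, and on none of the 206 calls did the groups overlap.

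Of 18 slow-fibre genes 3 fell and none rose, or 16.7% called against 1.03% of all genes. Of their differences 17 were below 0 (48.96% of all genes were), and the median was -0.38. That median was -0.12 without treated array 1, -0.16 without control array 2 and -0.61 without control array 1. Casq2, the calcium-storing calsequestrin of slow and cardiac muscle, fell from 8.27 and 8.16 to 6.95 and 6.78 (-1.35 ± 0.13, adjusted p = 0.00764). Ankrd2, which is induced by stretch, fell from 11.06 and 11.49 to 10.34 and 10.20 (-1.01 ± 0.16, adjusted p = 0.0285). The slow light chain gene Myl3 fell from 12.30 and 12.53 to 11.19 and 11.64 (-1.001 ± 0.17, adjusted p = 0.0377, and 0.0631 without control array 2). These 3 genes had high signal and groups that did not overlap, the latter being true of all 206 calls. Myl2, the regulatory light chain of slow fibres, had 10.94 and 11.91 in control and 9.51 and 10.47 in the treated group (-1.43 ± 0.35), and it did not pass (adjusted p = 0.11). The mean of the slow list lay at -0.61 and -0.31 from the control mean on treated arrays 1 and 2, and at -0.19 and 0.19 on the control arrays.

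None of 9 developmental contractile genes passed, against 1.03% of all genes, with a median of 0.28. Myh3, the embryonic myosin expressed in growing and regenerating fibres, came nearest at 4.65 and 4.79 in control and 5.42 and 5.65 in the treated group (0.81 ± 0.16, adjusted p = 0.0533).

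Among 29 Z-disc and stretch-responsive genes, 3 rose and 4 fell, or 24.1% called against 1.03% of all genes (median -0.22). Those that rose were Actn3 and Myoz1, given above, and Fhl3, a LIM-domain gene (1.21 ± 0.21, adjusted p = 0.0382). Pdlim1, which couples actinin to other proteins, fell from 10.66 and 10.81 to 9.12 and 9.57 (-1.39 ± 0.19, adjusted p = 0.0163). Falls of Ankrd23 (-1.15, adjusted p = 0.042), a relative of Ankrd2, and of the filamin gene Flnc (-0.74, adjusted p = 0.0425) were smaller. The 4th was Ankrd2, given above. The call of Fhl3 was lost without control array 1, and those of Ankrd23 and Flnc without control array 2. The LIM-domain mechanosensor gene Csrp3 had 9.53 and 10.20 in control and 8.59 and 9.504 in the treated group. Its difference of -0.82 ± 0.36 did not pass (adjusted p = 0.386), and the arrays of either group differed about as much as the groups.

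The triad is the junction where the surface signal reaches the calcium store. Of 23 genes of calcium release and the triad, 2 rose and 1, Casq2, fell (13% called against 1.03% of all genes, median 0.09). Cacng1, a subunit of the L-type channel that senses voltage, rose from 7.70 and 8.03 to 9.24 and 8.98 (1.24 ± 0.16, adjusted p = 0.0123). The pore subunit Cacna1s rose from 9.80 and 10.05 to 10.63 and 10.69, by 0.74 ± 0.14, and sat at the threshold (adjusted p = 0.0495, 0.0735 without control array 1 and 0.0559 with arrays centred on their medians). The release channel Ryr1 had 10.55 and 10.61 against 11.18 and 11.21 (0.61 ± 0.12) and did not pass (adjusted p = 0.0606).

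**Figure D3:**
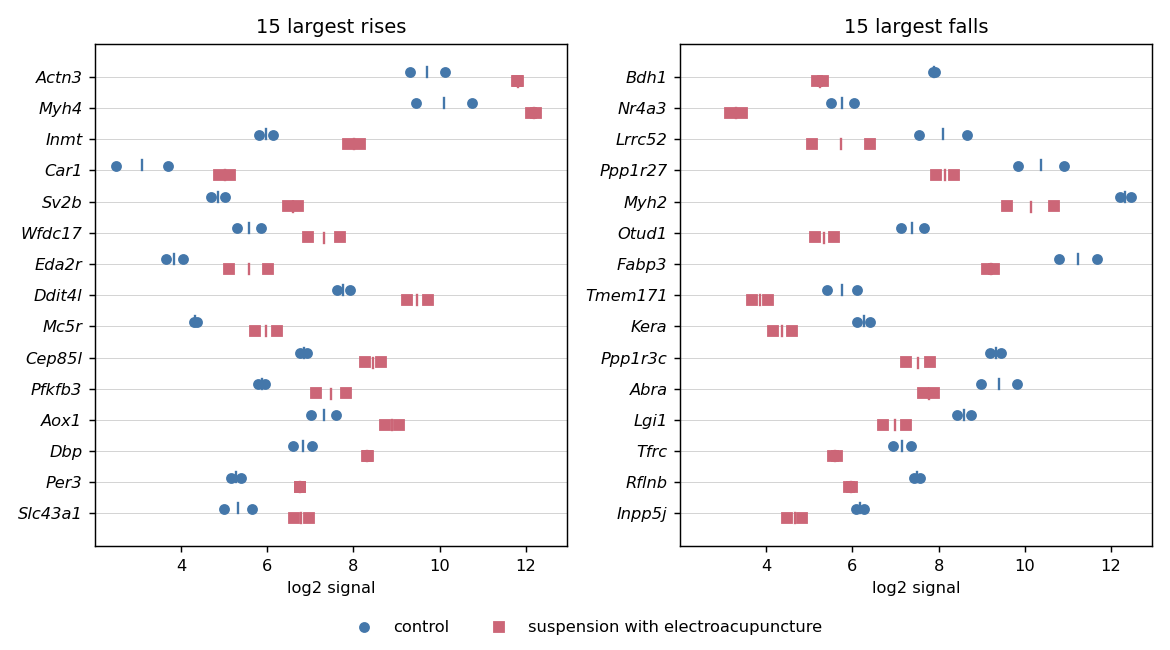
Log2 signal on each of the 4 arrays for the 15 largest rises and the 15 largest falls that passed, with circles for control, squares for the treated group and a short bar at each group mean. No gene shown has overlapping groups, which the rule that chose them required. The control circles of Actn3, Myh4 and Car1 lie further apart than their treated squares.

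Several genes of fat and ketone oxidation fell. All 3 ketone body genes that passed, of 5 measured, fell (60% called against 1.03% of all genes, median of the 5, -0.81). Bdh1 had 7.87 and 7.93 on the control arrays and 5.33 and 5.17 on the treated arrays, a difference of -2.65 ± 0.13 (adjusted p = 0.000227 in limma). The duplicates of both groups lay within a small part of that distance. Oxct1, which activates ketone bodies so that they can enter the citrate cycle, fell from 9.001 and 9.12 to 7.85 and 7.98 (-1.14 ± 0.14, adjusted p = 0.0111). Slc16a1, a carrier of lactate and ketone bodies, fell from 8.38 and 8.28 to 7.496 and 7.55 (-0.81 ± 0.12, adjusted p = 0.0255, and 0.0515 without control array 1).

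Among 31 genes that take up or oxidize fatty acids, 4 fell and none rose (12.9% called, against 0.587% lower over all genes), 26 differences were below 0, and the median was -0.40. Fabp3, which ferries fatty acids inside muscle cells, fell from 10.80 and 11.69 to 9.12 and 9.29, a 4.11-fold change (-2.04 ± 0.25, adjusted p = 0.0111). Its second transcript cluster gave -1.98. Enzymes of beta-oxidation fell less. Eci1 had 8.98 and 9.17 against 8.15 and 8.18 (-0.91 ± 0.13, adjusted p = 0.0164), Acaa2 differed by -0.89 ± 0.15 (adjusted p = 0.0359) and Hadha by -0.71 ± 0.13 (adjusted p = 0.0468). The calls of Acaa2 and Hadha were lost without control array 2 (adjusted p = 0.058 and 0.0602), and that of Hadha also with arrays centred on their medians (0.052). Fat markers, as said, differed between the control arrays, and their part in the fatty acid list was not tested. Without control array 2, which had the higher fat markers, the median of the list was -0.22.

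In the respiratory chain and its feeder pathways the shifts were small and mostly in one direction. Of 75 genes of oxidative phosphorylation 71 differences were below 0 and the lowest was -0.71. The median was -0.30, -0.15 without control array 2 and -0.43 without control array 1. The 1 gene that passed, or 1.33% against 1.03% of all genes, was Ndufc1, a subunit of complex I, which fell from 9.67 and 9.59 to 8.91 and 9.01 (-0.67 ± 0.12, adjusted p = 0.043, 0.0681 without control array 1 and 0.0614 with the mean of its clusters). Cytochrome c (Cycs) had 12.09 and 12.10 against 11.34 and 11.55 (-0.65 ± 0.13) and did not pass (adjusted p = 0.0654). Of 25 genes of the citrate cycle and pyruvate dehydrogenase none fell past the threshold (median -0.24), and Pdp1, the phosphatase that switches pyruvate dehydrogenase on, rose. It had 8.56 and 8.10 in control and 9.22 and 9.20 in the treated group (0.88 ± 0.16, adjusted p = 0.0437, 0.0508 without control array 2 and 0.0767 with quantile normalization again).

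Of 19 PGC-1 and nuclear receptor genes, which regulate oxidative metabolism, 2 fell and none rose (10.5% called against 1.03% of all genes). Their median was -0.20, and -0.11 and -0.32 without control arrays 2 and 1. Ppargc1a, the coactivator that drives mitochondrial biogenesis, fell from 8.79 and 9.49 to 7.86 and 7.57 (-1.42 ± 0.22, adjusted p = 0.0252), and a second, dimmer cluster of the gene gave -2.05. Ppara, the fatty acid receptor that switches on beta-oxidation genes, fell from 7.23 and 7.70 to 6.35 and 6.23 (-1.17 ± 0.17, adjusted p = 0.0205). Of 24 NR4A and immediate early genes, which respond within minutes to activity or stress, Nr4a3 fell and none rose (4.17% called, median -0.20). It went from 5.49 and 6.04 to 3.43 and 3.16 (-2.47 ± 0.21, adjusted p = 0.00703). Its treated mean of 3.30 was under the background level of 3.47, so the size of that fall is set in part by background.

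Of 29 genes of glycolysis and glycogen use, 1 rose and none fell (3.45% called against 1.03% of all genes, median 0.14). Pfkfb3, whose product makes the activator of phosphofructokinase, rose from 5.79 and 5.96 to 7.12 and 7.82 (1.60 ± 0.21, adjusted p = 0.015, and 0.051 without control array 1). Glycogen phosphorylase, Pygm, had 11.65 and 11.56 against 12.14 and 12.19 and did not pass (0.56 ± 0.13, adjusted p = 0.0969). Outside that list, Ppp1r3c, which targets a phosphatase to glycogen and favours its storage, fell from 9.44 and 9.20 to 7.25 and 7.80 (-1.79 ± 0.19, adjusted p = 0.00784).

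Of 21 genes of capillary growth 3 fell and none rose (against 0.587% lower over all genes). Of their differences 18 were below 0, and the median was -0.24. Vegfa, the main growth factor of capillaries, fell from 8.54 and 8.96 to 7.33 and 7.34 (-1.42 ± 0.17, adjusted p = 0.0111). Its receptor gene Kdr, made by endothelial cells, fell from 7.06 and 7.13 to 6.00 and 5.63 (-1.28 ± 0.17, adjusted p = 0.0135). Vegfb fell from 8.61 and 8.71 to 7.66 and 7.92 (-0.87 ± 0.14, adjusted p = 0.0267). Kdr was the 1 of 15 endothelial markers that passed. Of the other endothelial markers, Eng differed by -0.72 ± 0.14 (adjusted p = 0.0503), Emcn by -0.58 ± 0.14 (0.11), Ptprb by -0.53 ± 0.13 (0.128), Pecam1 by -0.24 ± 0.14 (0.569) and Cdh5 by -0.09 ± 0.16 (0.9). In the endothelial list 13 of 15 differences were below 0, 10 had non-overlapping groups with lower treated arrays (20.0% of all genes did), and the median was -0.24. The part of endothelial markers in the capillary list was not tested. The list's summed linear signal, in units of 1000, was 2.89 and 3.30 in control and 2.45 and 2.49 in the treated group. In whole muscle, fewer cells of a type and less RNA per cell cannot be told apart.

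**Figure D4:**
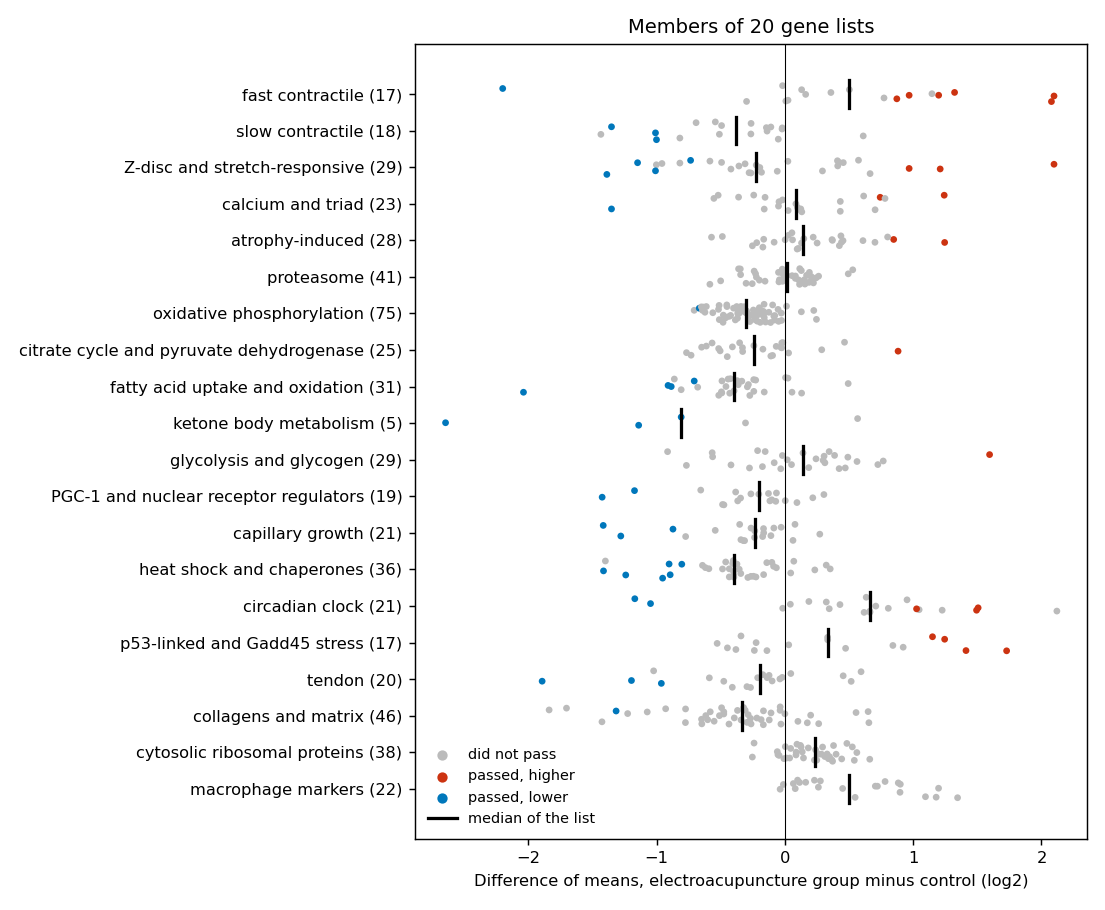
Differences of the members of 20 gene lists (log2, treated minus control), with the number measured in brackets, colour for members that passed and a black bar at the median. The clock, fast-fibre and macrophage lists have the highest medians (0.66, 0.50 and 0.50) and the ketone list the lowest (-0.81), and none of the 22 macrophage markers passed.

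Of 28 measured atrophy-induced genes 2 rose and none fell, or 7.14% called against 0.446% higher over all genes. Of their differences 21 were above 0, and the median was 0.14, and 0.23 without control array 2. Fbxo32, the ubiquitin ligase atrogin-1, rose from 8.39 and 8.77 to 9.39 and 9.47 (0.85 ± 0.15, adjusted p = 0.0404, and 0.0637 without control array 1). Gadd45a, a stress gene that rises in denervated and fasted muscle, rose from 4.61 and 4.90 to 6.08 and 5.93 (1.25 ± 0.22, adjusted p = 0.04, and 0.121 and 0.0529 without control arrays 1 and 2). The other main atrophy ligase gene, Trim63, had 8.04 and 8.35 in control and lower values of 7.73 and 7.69 in the treated group, a difference of -0.49 ± 0.18 that did not pass (adjusted p = 0.307). Fbxo31 had 9.08 and 8.97 against 9.85 and 9.80 (0.80 ± 0.19) and did not pass (adjusted p = 0.104).

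None of 41 proteasome genes passed, which at 1.03% over all genes says little of them, with a median of 0.02 and a range from -0.58 to 0.53. Of 27 autophagy and lysosome genes 1 rose, Map1lc3a, a protein of the autophagosome membrane, from 8.30 and 8.37 to 9.09 and 9.08 (0.75 ± 0.13, adjusted p = 0.0334, and 0.0585 without control array 1). Gabarapl1, of the same protein family, had 8.41 and 9.33 in control and 7.77 and 7.91 in the treated group (-1.03 ± 0.26) and did not pass (adjusted p = 0.117).

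Among growth signals, the brakes on mTOR, the kinase that drives protein synthesis, had 1 large rise. Of 13 such genes 1 passed (7.69% against 1.03% of all genes), Ddit4l, which inhibits mTOR signalling. Its signals were 7.91 and 7.63 in control and 9.24 and 9.73 in the treated group. The difference of 1.71 ± 0.18 was 3.27-fold (adjusted p = 0.00784). Of 20 insulin and IGF genes 1 passed (5%), Irs1, the docking protein of the insulin receptor. Irs1 fell from 7.10 and 7.28 to 6.23 and 6.36 (-0.89 ± 0.14, adjusted p = 0.0244, and 0.129 with the mean of its transcript clusters). Igf1 had 6.26 and 6.50 against 6.22 and 6.02 (-0.26 ± 0.27, adjusted p = 0.787). None of 17 myostatin and activin genes passed, which at 1.03% over all genes says little of them. Mstn itself had 3.34 and 3.51 against 3.83 and 3.79 (adjusted p = 0.356), near the background level.

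Stress genes linked to p53 and Gadd45 had 4 rises and no fall among 17 (23.5% called, against 0.446% higher over all genes). The median was 0.33, and 0.18 to 0.25 with any 1 of the 4 arrays left out. Gadd45b rose from 5.69 and 5.64 to 6.79 and 6.84 (1.15 ± 0.13, adjusted p = 0.0106). Trp53inp1, a p53-induced regulator of autophagy and cell death, rose from 5.79 and 5.96 to 7.10 and 7.47 (1.41 ± 0.18, adjusted p = 0.0111). Eda2r, a receptor of ectodysplasin, rose from 3.64 and 4.04 to 5.12 and 6.02 (1.73 ± 0.28, adjusted p = 0.0285, and 0.093 without control array 1). The 4th was Gadd45a, given above.

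Of 36 heat shock and chaperone genes 6 fell and none rose, or 16.7% called against 0.587% lower over all genes, and 30 did not pass. Of their differences 31 were below 0, against 48.96% of all genes, and the median was -0.40, between -0.43 and -0.35 when any 1 of the 4 arrays was left out. Hspa1l, an HSP70 gene, fell from 8.14 and 8.25 to 6.55 and 7.01 (-1.41 ± 0.17, adjusted p = 0.0111). Dnajb4, an HSP40 co-chaperone, fell from 9.45 and 9.34 to 8.12 and 8.19 (-1.24 ± 0.13, adjusted p = 0.00812). Hspe1, the lid of the mitochondrial chaperonin, fell from 9.35 and 9.14 to 8.23 and 8.46 (-0.90 ± 0.14, adjusted p = 0.0286, and 0.0632 without control array 1).

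Hspa5, the chaperone of the endoplasmic reticulum, fell from 9.19 and 9.32 to 8.37 and 8.35 (-0.89 ± 0.13, adjusted p = 0.0212). It was also the 1 member of 20 in the unfolded protein response that passed (5% against 1.03% of all genes, median of that list -0.25). The largest difference of that list was a rise, of Chac1 (1.95 ± 0.42), which did not pass (adjusted p = 0.0778). Among the chaperones, Hsph1, an exchange factor for HSP70 (-0.95, adjusted p = 0.046), and the co-chaperone gene Dnaja4 (-0.80, adjusted p = 0.0325) fell too. The call of Hsph1 was lost without control array 1 and that of Dnaja4 without either control array. The inducible HSP70 gene Hspa1a had 7.53 and 7.59 in control but 5.67 and 6.64 on the treated arrays, which lay far apart, and it did not pass (-1.40 ± 0.28, adjusted p = 0.0619).

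Heat shock factor binds inverted repeats of the letters GAA, written here as GAANNTTC or TTCNNGAA. In the 250 bases before the RefSeq start site (GRCm38.p6), at least 1 of these was present in 11 of the 31 chaperone genes with a listed promoter and in 4 of the 6 that fell, against 12.8% of all 32851 listed promoters. Some genes have more than 1 start site and were counted if any held a match, whereas the 12.8% is of single promoters. The 2 patterns can overlap. Hspe1, which fell, and Hspd1, which did not pass, share the stretch with their matches on opposite strands, and both are counted. A match of letters is not a measured binding site. The promoter of Hsph1 is shown as an example of a gene that fell, at chr5:149636337-149636456 on the minus strand, with the match in capitals 33 bases before the start.

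Hsph1: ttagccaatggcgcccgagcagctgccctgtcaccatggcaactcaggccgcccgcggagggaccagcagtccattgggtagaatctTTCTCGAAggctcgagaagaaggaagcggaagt

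The circadian clock list had the highest median of the 45 lists, 0.66. The clock is a loop in which the activators BMAL1 (gene Arntl) and CLOCK switch on their own repressors, the Per and Cry genes, and output factors such as Dbp, so that activator and output levels run in opposite phase through the day. Of 21 measured clock genes 3 rose and 2 fell, or 23.8% called against 1.03% of all genes. Of their differences 18 were above 0, while 48.96% of all genes had a difference below 0. Dbp, an output factor that binds D-boxes, had 6.60 and 7.04 in control and 8.31 and 8.34 in the treated group, a difference of 1.51 ± 0.17 (adjusted p = 0.00871). Per3, a repressor of the loop, rose from 5.15 and 5.398 to 6.77 and 6.77 (1.49 ± 0.17, adjusted p = 0.0103). The treated arrays were almost equal in both genes and above both controls.

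Arntl fell from 6.79 and 6.53 to 5.62 and 5.61 (-1.05 ± 0.14, adjusted p = 0.015). Nfil3, a repressor at D-boxes, fell from 6.78 and 6.37 to 5.24 and 5.57 (-1.17 ± 0.18, adjusted p = 0.0244, and 0.0614 without control array 1). Tef, a relative of Dbp, rose from 6.18 and 6.67 to 7.43 and 7.47 (1.03 ± 0.17, adjusted p = 0.0324). The activator gene Arntl and the D-box repressor gene Nfil3 were thus lower, and the genes of the D-box activators Dbp and Tef were higher. In the list 16 genes did not pass. Per1 had 6.87 and 6.86 against 7.68 and 8.14 (1.05 ± 0.22) and did not pass (adjusted p = 0.0765). Ciart, a repressor of the loop, had 3.78 and 5.34 in control and 6.81 and 6.55 in the treated group. Its difference of 2.12 ± 0.40 was the largest in the list, and it did not pass (adjusted p = 0.0514). The hour of sampling is not given, so time of day and treatment cannot be told apart in these genes.

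Clock elements of 3 kinds were looked up in the 250 bases before the RefSeq start sites (GRCm38.p6), on both strands: the E-box CACGTG, bound by BMAL1 and CLOCK, the D-box TTATGTAA, bound by Dbp, Tef and Nfil3, and the core AGGTCA of the element bound by ROR and REV-ERB receptors. Of the 18 clock genes with a listed promoter, 5 held the E-box, 1 held the D-box and 4 held the ROR core, against 6.02%, 0.819% and 14% of all listed promoters. A gene was counted if any of its start sites held a match, whereas these shares are of single promoters. Among the 5 that passed, Tef held an E-box, Per3 had the D-box, with 2 copies at 205 and 158 bases before the start, and Nfil3 had the ROR core 12 bases before the start. These 3 are shown with the matches in capitals: Per3 at chr4:151044784-151044903 on the minus strand, Tef at chr15:81802489-81802608 on the plus strand and Nfil3 at chr13:52981040-52981159 on the minus strand, where the core reads as its reverse complement.

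Per3: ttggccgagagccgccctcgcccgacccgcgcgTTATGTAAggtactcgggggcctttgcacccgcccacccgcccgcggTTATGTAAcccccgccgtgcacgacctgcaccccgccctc

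Tef: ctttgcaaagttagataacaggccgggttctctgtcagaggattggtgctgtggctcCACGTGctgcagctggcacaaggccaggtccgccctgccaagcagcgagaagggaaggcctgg

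Nfil3: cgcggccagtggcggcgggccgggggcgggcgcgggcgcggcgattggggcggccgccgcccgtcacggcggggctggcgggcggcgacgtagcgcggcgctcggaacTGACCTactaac

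**Figure D5:**
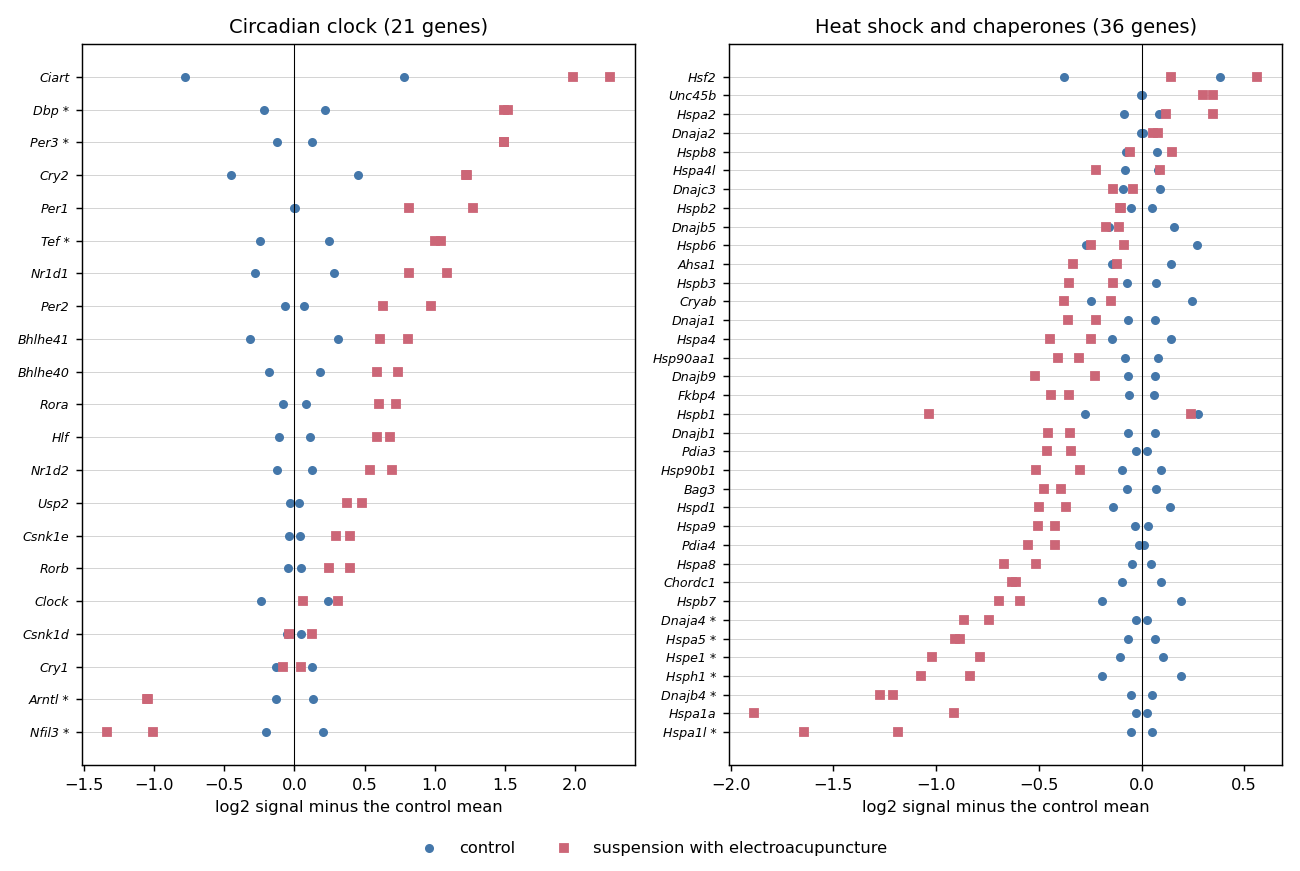
Log2 signal minus the control mean on each of the 4 arrays for the 21 clock genes and the 36 chaperone genes, with circles for control, squares for the treated group and a star for genes that passed. Most clock genes lie to the right of the control mean, with Arntl and Nfil3 to its left, while 31 of the 36 chaperone genes have a mean below control.

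Glucocorticoid-induced genes, some of which follow the clock, had 1 rise and no fall among 19 (5.26% called against 1.03% of all genes, median 0.42). Glul, which makes glutamine, rose from 8.46 and 8.52 to 9.34 and 9.53 (0.94 ± 0.15, adjusted p = 0.0286, and 0.0632 without control array 1). Fkbp5, a classic target of the glucocorticoid receptor, had 5.99 and 5.78 against 6.57 and 6.64 (0.72 ± 0.15) and did not pass (adjusted p = 0.0619).

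Of 20 tendon genes 3 fell and none rose, or 15% against 0.587% lower over all genes (median -0.19, and -0.12 without treated array 1). Kera, the gene of the matrix proteoglycan keratocan, fell from 6.42 and 6.11 to 4.15 and 4.59 (-1.89 ± 0.19, adjusted p = 0.00764). Tnmd, tenomodulin, a marker of tendon cells, fell from 7.90 and 8.00 to 6.62 and 6.90 (-1.20 ± 0.15, adjusted p = 0.0111). Scx, the transcription factor of tendon progenitors, fell from 6.24 and 6.56 to 5.45 and 5.42 (-0.96 ± 0.16, adjusted p = 0.0334, and 0.0683 without control array 2). Chad, a tendon and cartilage matrix gene, overlapped between the groups, with 9.78 and 9.42 in control and 9.20 and 9.75 in the treated group (-0.12 ± 0.23, adjusted p = 0.899).

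Of 46 genes of collagens and matrix 1 fell (2.17% called against 1.03% of all genes), 39 differences were below 0 and the median was -0.33. The one was Adamts1, a protease of matrix proteoglycans, which fell from 6.72 and 6.96 to 5.75 and 5.29 (-1.32 ± 0.18, adjusted p = 0.015). Col1a1, the main chain of type I collagen, had 9.41 and 9.01 in control and 7.27 and 7.48 in the treated group. The difference of -1.84 was larger than that of Adamts1, but with an SE of 0.45 from the fit over all 3 groups it did not pass (adjusted p = 0.116). Of 14 fibroblast markers 0 were called, and the median was -0.08. It was -0.38 without control array 1 and 0.08 without control array 2, beside -0.41 and -0.34 for collagens and matrix. The summed linear signal of the fibroblast markers, in units of 1000, was 6.21 and 6.83 in control and 7.39 and 6.43 in the treated group. Both lists hold Col1a1, and the part of fibroblasts in the collagen list was not tested.

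Calls were few in number among amino acid transporters and among myogenic and fibre-type factors. Of 19 amino acid transporter genes 1 rose and 2 fell (15.8% called against 1.03% of all genes). Slc43a1, a carrier of large neutral amino acids, rose from 4.99 and 5.65 to 6.62 and 6.96 (1.47 ± 0.26, adjusted p = 0.0395, and 0.102 without control array 1). Slc38a2, which takes up small neutral amino acids, fell from 9.52 and 9.66 to 8.68 and 8.60 (-0.95 ± 0.12, adjusted p = 0.0139), and the creatine carrier gene Slc6a8, grouped with them by its family, fell from 8.77 and 8.88 to 7.98 and 7.91 (-0.88 ± 0.12, adjusted p = 0.0164). Of 32 myogenic and fibre-type factors 1 passed (3.12%), Nfatc2, a factor activated by calcineurin. It rose from 5.96 and 5.97 to 6.98 and 7.01 (1.03 ± 0.13, adjusted p = 0.0111). Rcan1, a calcineurin inhibitor that is itself a target of the pathway, had 8.99 and 10.08 in control and 7.46 and 8.37 in the treated group (-1.62 ± 0.38) and did not pass (adjusted p = 0.101).

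Of 31 glutathione and antioxidant genes 1 passed (3.23% against 1.03% of all genes), Gstm1, a glutathione transferase. It rose from 8.65 and 9.27 to 10.14 and 10.22 (1.22 ± 0.20, adjusted p = 0.0288). Outside that list Gstm3, another glutathione transferase gene, rose by 0.75 ± 0.13 (adjusted p = 0.04). Chac1, which degrades glutathione, had 5.25 and 6.64 in control and 7.61 and 8.18 in the treated group. Its difference of 1.95 ± 0.42 was among the largest of all, and it did not pass (adjusted p = 0.0778). Of 11 carbonic anhydrase genes Car1 alone passed (9.09%), and it rose from 2.50 and 3.70 to 5.14 and 4.87 (1.91 ± 0.33, adjusted p = 0.0391). Its control mean of 3.10 was under the background level of 3.47, so its fold is set in part by background. Car1 is also made by red cell precursors, and of 10 erythroid markers listed only 3 were measured. The others, Alas2 and Slc4a1, differed by -0.30 and -0.20 with neither passing. Alas2 was far apart on the control arrays, at 4.63 and 5.97. The part of red cells in the rise of Car1 was not tested.

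Macrophage markers as a list lay above control on both treated arrays, and higher on treated array 1 than on treated array 2. None of 22 macrophage markers passed, against 1.03% of all genes. Of their differences 20 were above 0, and the median was 0.50, and 0.32 without control array 1. In 15 of the 22 the groups did not overlap and the treated arrays were higher, as in 21.8% of all genes. Averaged over the list, signals were 0.72 and 0.37 above the control mean on treated arrays 1 and 2, with -0.11 and 0.11 on the control arrays. The summed linear signal, in units of 1000, was 1.02 and 1.26 in control and 2.20 and 1.55 in the treated group. Lyz2, lysozyme of myeloid cells, had 7.25 and 7.93 against 9.34 and 8.52 (1.35 ± 0.36, adjusted p = 0.147). The defining receptor gene Adgre1 (F4/80) moved little, at 4.84 and 4.89 against 5.25 and 4.94 (adjusted p = 0.641), and 2 of the 22 markers lay under the background level.

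Of 24 chemokine genes 1 passed (4.17% against 1.03% of all genes), Ccl17, a T cell attractant made by myeloid cells. It had 4.03 and 4.08 in control and 5.44 and 5.39 in the treated group, and the difference of 1.37 ± 0.15 was 2.58-fold (adjusted p = 0.00871). The treated arrays were close together in Ccl17, unlike in the macrophage list. Wfdc17, an antiprotease gene of activated macrophages, rose from 5.31 and 5.85 to 7.70 and 6.94 (1.74 ± 0.31, adjusted p = 0.0407, 0.132 without control array 1 and 0.0528 with the robust prior). Like the macrophage list it was higher on treated array 1, and the part of the macrophage markers in its rise was not tested. Among 16 markers of lymphocytes and neutrophils none passed (median -0.0024), and 10 of them lay under the background level.

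Lists of nerve, synapse, membrane and synthesis genes held no call: neuromuscular junction and denervation (0 of 23, median 0.07), the dystrophin complex (0 of 17, 0.01), lipid synthesis (0 of 21, 0.00), polyamine metabolism (0 of 6, -0.30), cytosolic ribosomal proteins (0 of 38, 0.23), Schwann and nerve markers (0 of 12, 0.15) and smooth muscle and pericyte markers (0 of 12, -0.13). The ribosomal median was 0.07 without control array 1 and 0.38 without control array 2. Of the ribosomal protein genes 32 of 38 differences were above 0, and the largest was 0.66, of Rpl10a. With 1.03% of all genes called, 0 calls in lists of these sizes say little of their genes. A lack of calls on 2 arrays a group does not show a lack of change.

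Other large changes lay outside these lists. Inmt, which methylates small amines, rose from 5.81 and 6.13 to 7.88 and 8.15 (2.04 ± 0.17, adjusted p = 0.00671), and Sv2b, a protein of synaptic vesicles, from 4.69 and 5.01 to 6.49 and 6.72 (1.75 ± 0.18, adjusted p = 0.00784). The melanocortin receptor gene Mc5r rose from 4.30 and 4.36 to 5.71 and 6.22 (1.63 ± 0.19, adjusted p = 0.0106). Aox1, aldehyde oxidase, rose by 1.59 ± 0.20 (adjusted p = 0.0116) and Cep85l, of a centrosomal protein, by 1.61 ± 0.16 (adjusted p = 0.00764). In all 5 genes both treated arrays were above both controls, which the rule that named them required.

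Falls outside the lists included regulators of phosphatases and of actin. Ppp1r27, a regulatory subunit of protein phosphatase 1, fell from 9.85 and 10.91 to 7.94 and 8.37 (-2.23 ± 0.30, adjusted p = 0.015). Abra, the gene of an actin-binding protein of striated muscle, fell from 8.99 and 9.82 to 7.64 and 7.90 (-1.64 ± 0.26, adjusted p = 0.0288). Rflnb, which binds filamin, fell from 7.57 and 7.42 to 5.99 and 5.93 (-1.54 ± 0.14, adjusted p = 0.00764). The deubiquitinase gene Otud1 fell from 7.12 and 7.66 to 5.13 and 5.57, a 4.14-fold change (-2.05 ± 0.21, adjusted p = 0.00784).

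Lrrc52, an auxiliary subunit of potassium channels, fell from 7.56 and 8.66 to 6.40 and 5.05. Its difference of -2.38 ± 0.43 came with wide duplicates in both groups (adjusted p = 0.0425, and 0.0978 without control array 2 and 0.119 with the robust prior). Tfrc, the transferrin receptor that brings iron into cells, fell from 7.36 and 6.95 to 5.64 and 5.55 (-1.56 ± 0.25, adjusted p = 0.0288, and 0.0972 without control array 1). The remaining 3 of the 15 largest falls were Tmem171 (-1.91), the secreted epilepsy-linked protein gene Lgi1 (-1.61) and the inositol phosphatase gene Inpp5j (-1.52).

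One microRNA gene passed among the calls at least 2-fold, Mir181b-2. Its cluster rose from 3.62 and 3.74 to 5.24 and 4.94 (1.41 ± 0.20, adjusted p = 0.0164), from close to the background level, and the call was lost without control array 1. The cluster is annotated to the hairpin gene, so the values say nothing of which mature arm was present. The mature 5p arm, from RefSeq (GRCm38.p6, chr2:38853845-38853868, plus strand), is shown with its seed, bases 2 to 8, in capitals.

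mmu-miR-181b-5p: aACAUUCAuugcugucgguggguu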

How the data were processed

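Total RNA of soleus was extracted with Trizol, labelled with biotin and hybridized to Affymetrix Gene 1.0 ST arrays, per the labels. The authors computed the deposited log2 signals by RMA in Affymetrix Expression Console, per the submitters' processing notes, with no version or genome build given in the sources used here. The deposited log2 signals of 35556 transcript clusters were used as they stood, so the base rests on RMA and on the range of the values.

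Clusters with 1 gene symbol (21789) were kept, 1621 with several and 12146 with no listed gene were left out, and the cluster of highest mean over the 6 arrays stood for each symbol. A match by Entrez ID, found for 21698, changed 0 symbols. No filter on signal was set. Group means were fitted over all 6 arrays with limma 3.58.1 in R 4.3.3, with a prior variance set as a trend on signal (3 residual degrees of freedom, 5.88 from the prior), and the contrast was treated minus control. The fit was also run on simulated data with spreads shuffled over genes, which does not test the trend on signal. The median SE was 0.17 log2, and the number of arrays limits the precision.

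The 45 lists (1079 entries, 929 distinct genes measured) were written from general knowledge, were not tested as sets and overlap. Comparison, lists and rule were chosen with earlier results of these data known. The rule named the top 15 rises and the top 15 falls by size among calls with non-overlapping groups (no predicted genes or clone names), the 4 members of each list with the smallest p, and 22 genes of interest. Pvalb, Fhl3, Ankrd23, Ankrd1, Flnc, Hsph1, Dnaja4, Tef, Ciart, Mir181b-2, Adipoq, Acta1, Pecam1, Cdh5, Adgre1 and Gstm3 were named after their values were seen. The olfactory receptor level was chosen then too.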

Additional observations from a re-analysis of the deposited data

How the results depend on the processing

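The count of 206 (89 higher, 117 lower) was 101 (40 and 61) with a variance prior that does not follow the signal, 129 (49 higher) with the 4 arrays fitted alone, 399 (184 and 215) at an adjusted p under 0.10 and 117 (46 and 71) with a 2-fold minimum. With every cluster tested by itself it was 1 (0 higher and 1 lower, Bdh1), over 35556 tests and with the prior degrees of freedom at 3.07; limma gave 3914 clusters at an unadjusted p under 0.05 there. Quantile normalization again gave 176 lower. Leaving out 1 array gave 2 to 299 calls, 0 to 189 higher and 2 to 139 lower. The low ends were reached without treated array 2 (2 calls, 0 higher), where 1607 genes had an unadjusted p under 0.05 in limma. The cause was not tested. The robust prior, array weights, the filter on the median signal, median centring and the mean of clusters moved the total by under 1.5 times, though array weights ended the calls of Myl3, Cacna1s, Hadha, Ndufc1, Gadd45a, Wfdc17 and Lrrc52 (adjusted p from 0.0506 to 0.0581) among the named genes. The robust prior ended the calls of Lrrc52, Myh4 and Wfdc17, the prior that does not follow the signal those of 26 named genes, and the 4 arrays alone those of 18. The replicate block gave 127 calls (52 and 75), 119 of them shared with the 206, and ended the calls of 18 named genes. The correlation over genes between the duplicate differences was 0.02 for the groups compared and -0.16 for control with suspension alone. Such a correlation cannot show whether the replicate numbers pair the samples. Of 192 named genes, 4 changed sign in some setting, none of them called: Myh7 (0.18 without control array 2, 0.16 without treated array 1, range -0.22 to 0.18), Chad (0.055 and 0.15 without control array 1 and treated array 1, range -0.40 to 0.15), Alas2 (0.37 without control array 2, range -0.97 to 0.37) and Cd79a (-0.030 without control array 1, range -0.030 to 0.56). Of the 72 named genes that passed, 39 did so in every setting other than the ones without a treated array and with every cluster by itself. The adipocyte median ran from -0.84 to 0.36 with 1 array left out. Signals near background limit the folds of Car1, Nr4a3 and Mir181b-2.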
